A study of Rattus norvegicus with 9 samples.

Results

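The transcripts of ubiquitin-conjugating enzymes and of ubiquitin-specific deubiquitinases were examined in the gastrocnemius, a mixed-fibre muscle of the calf, of the rat. Members were all probe sets to which the array annotation gives a single gene symbol starting with Ube2 or with Usp and a digit. This gave 72 genes with 135 of the 31099 deposited probe sets, of which 52 belonged to 29 Ube2 genes and 83 to 43 Usp genes. The symbol rule also took in Usp6nl, which encodes a Rab GTPase-activating protein and not a deubiquitinase, and Usp39, a splicing protein of the same fold without deubiquitinase activity. A further 8 probe sets carry a Ube2 symbol together with that of a related gene and were not counted as members.

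The muscle came from male Wistar rats of 250 g, and 1 array was hybridised per animal. In the combination group, osmotic pumps delivered both dexamethasone at 0.7 mg/kg/day and testosterone to 3 rats over 7 days. For testosterone, 28 mg/kg/day is stated in the treatment protocol and 20 mg/kg/day in the description of the design, and the sources used here do not settle which was given. In the dexamethasone group, 3 rats received dexamethasone alone at 0.7 mg/kg/day, and in the vehicle group 3 rats received propylene glycol, the solvent that all the animals had in their pumps. Dexamethasone is a synthetic glucocorticoid that wastes limb muscle, and testosterone is an androgen that opposes muscle loss in several settings. The design asks which transcripts differ between dexamethasone and vehicle muscle and between muscle given both hormones and muscle given dexamethasone alone.

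Ubiquitin is a small protein that is attached to other proteins by a relay of enzymes. An activating enzyme (E1) loads ubiquitin onto a conjugating enzyme (E2, the Ube2 genes), and a ligase (E3) brings the loaded E2 to the substrate. The E2 often decides which kind of chain is built, so that some chains send the substrate to the proteasome and others alter its position or its partners. Deubiquitinases of the Usp family, which are cysteine proteases, cut ubiquitin off again. In wasting rodent muscle the ligases Trim63 (MuRF1) and Fbxo32 (atrogin-1) are the best known members of the pathway, and Ube2b and Usp19 are the E2 and the deubiquitinase most often named beside them.

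Start-site sequences are shown for the 3 genes on which the results turn or which share an element with one of them. They are Usp2, Ube2j1 and Ube2g2. A probe set of Usp2 and that of Ube2j1 had the lowest limma p of their classes between dexamethasone and vehicle muscle. For Usp2 it was the dimmer probe set, 1375549_at. Ube2g2 is the other E2 of endoplasmic reticulum quality control whose window holds the same element as that of Ube2j1. The windows run from 250 bases before to 50 bases after the start that the RefSeq window table uses, are written 5′ to 3′ on the strand of the gene, and are taken from RefSeq on the rat build GRCr8.
Usp2: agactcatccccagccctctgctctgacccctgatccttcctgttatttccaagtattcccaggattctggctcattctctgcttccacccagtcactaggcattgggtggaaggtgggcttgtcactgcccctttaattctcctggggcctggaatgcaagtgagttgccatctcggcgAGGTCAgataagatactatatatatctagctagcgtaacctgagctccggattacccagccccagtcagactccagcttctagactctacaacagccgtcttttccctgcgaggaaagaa
Ube2j1: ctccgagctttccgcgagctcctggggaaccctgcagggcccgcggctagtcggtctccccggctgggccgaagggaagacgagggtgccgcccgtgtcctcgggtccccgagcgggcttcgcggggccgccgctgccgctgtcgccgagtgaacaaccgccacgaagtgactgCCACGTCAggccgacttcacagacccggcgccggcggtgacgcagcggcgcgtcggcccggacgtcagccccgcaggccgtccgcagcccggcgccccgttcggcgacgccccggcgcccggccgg
Ube2g2: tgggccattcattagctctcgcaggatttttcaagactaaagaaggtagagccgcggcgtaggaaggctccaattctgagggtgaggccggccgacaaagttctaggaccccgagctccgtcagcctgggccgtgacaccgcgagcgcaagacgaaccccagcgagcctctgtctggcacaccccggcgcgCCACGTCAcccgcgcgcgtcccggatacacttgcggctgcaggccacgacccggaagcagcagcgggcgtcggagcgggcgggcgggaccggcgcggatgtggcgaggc

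The Usp2 window lies at chr8:53310620-53310919 on the plus strand, around a start inside the annotated gene, whose 5′ end is at 53308264, that of Ube2j1 at chr5:52218557-52218856 on the plus strand and that of Ube2g2 at chr20:11005011-11005310 on the minus strand. The capitals in Usp2 mark AGGTCA, the core that many nuclear receptors bind, 70 bases before the start. The capitals in Ube2j1 and Ube2g2 mark CCACGTCA, which reads TGACGTGG on the other strand and is the core of the unfolded protein response element, 76 and 59 bases before their starts. Both motifs were searched on both strands and were chosen after the sequences had been seen. TGACGTGG stood in 0.595% of 33469 rat windows of the same length, in 2 of 28 Ube2 windows (Ube2g2 and Ube2j1) and in 0 of 34 Usp windows. AGGTCA stood in 16.2% of all windows and in 3 of the 34 Usp windows, those of Usp2, Usp20 and Usp29. The palindrome of the glucocorticoid receptor, AGAACA and TGTTCT with 3 bases between, stood in 0.0149% of all windows and in none of the member windows, which cover 59 of the 72 genes. These letters are descriptions of the windows, and no binding was measured.

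Signals were taken as log2 of the deposited intensity plus 16 after quantile normalization, and every change below is a difference on that scale. The arrays fell into 3 sets. Set A (combination 1, dexamethasone 1, vehicle 1 and vehicle 3) was deposited without a common scale, with trimmed mean signals of 113.3 to 206.8. Set B (combination 2, dexamethasone 2, vehicle 2) and set C (combination 3, dexamethasone 3) had a trimmed mean of 500.3. Set C also had a Gapdh 3′ to 5′ signal ratio of 6.22 in combination 3 and 4.94 in dexamethasone 3, against 1.06 to 1.17 in the other 7 arrays. The 8 muscle fibre markers, most of them of fast or of all fibres, averaged 14.39 to 14.72 in all arrays, which bears out skeletal muscle as the tissue. The 7 slow fibre markers were less even. They averaged 8.54, 13.72 and 12.54 in combination 1, 2 and 3, against 13.85 to 14.18 in dexamethasone and 13.66 to 14.0 in vehicle muscle. Of 7 genes that glucocorticoids are known to induce, 6 passed the test as higher in dexamethasone than in vehicle muscle, with a median change of 2.08 over the 7. Their median change between combination and vehicle muscle was 0.85, and 0 of the 7 passed there, where no probe set did. Between combination and dexamethasone muscle 0 of the 7 passed, and the median change was -1.12. The 2 groups given dexamethasone thus differed in the level of these genes, for which no cause was tested.

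No member passed the test in any of the 3 comparisons. A probe set passed where limma's p, adjusted by Benjamini-Hochberg over all 18625 tested probe sets, was below 0.05. Of the 135 members, 101 were bright enough to be tested (44 Ube2 probe sets of 26 genes and 57 Usp probe sets of 37 genes) and 34 lay under the brightness filter. Between dexamethasone and vehicle muscle, 0 of 101 members passed, where 1.05% of all tested probe sets did. At an unadjusted limma p under 0.05 stood 12 members, which is 11.9% against 15.5% of all tested probe sets. Of these, 7 were higher and 5 lower in dexamethasone muscle, against 7.88% and 7.57% of all tested probe sets. The 3 dexamethasone arrays did not overlap the 3 vehicle arrays in 15 members, or 14.9%, against 22.9% of all tested probe sets. In 6 they were higher and in 9 lower, against 12.5% and 10.4% of all tested probe sets. By each of these counts the share of members, both classes together, was below the share of all probe sets. Within a class, 6 of 57 Usp probe sets (10.5%) were higher at that unadjusted limma p, above the 7.88% of all. In 5 of 44 Ube2 probe sets (11.4%) the dexamethasone arrays were lower without overlap, above the 10.4% of all.

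Both classes had median changes near 0. The median change between dexamethasone and vehicle muscle was -0.031 over the 26 Ube2 genes, with 13 above and 13 below 0. It was 0.1 over the 37 Usp genes, with 23 above and 14 below 0, and 0.042 over all 10428 genes tested, of which 54.3% were above 0. By array, the Usp median relative to the vehicle mean was 0.24, -0.044 and 0.16 in dexamethasone muscle and 0.048, -0.11 and 0.036 in vehicle muscle, so the groups overlapped. The Ube2 median was -0.039, -0.1 and -0.0026 in dexamethasone muscle and 0.0052, -0.03 and 0.0063 in vehicle muscle, which overlapped as well. The sign of the Ube2 median turned with the scaling, since scaling the arrays to 1 median gave 0.23 for Ube2, 0.28 for Usp and 0.2 for all genes. The precision was limited by 3 arrays per group: the 95% interval of a change reached 0.53 to either side for the median Ube2 gene and 0.49 for the median Usp gene.

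**Figure D1:**
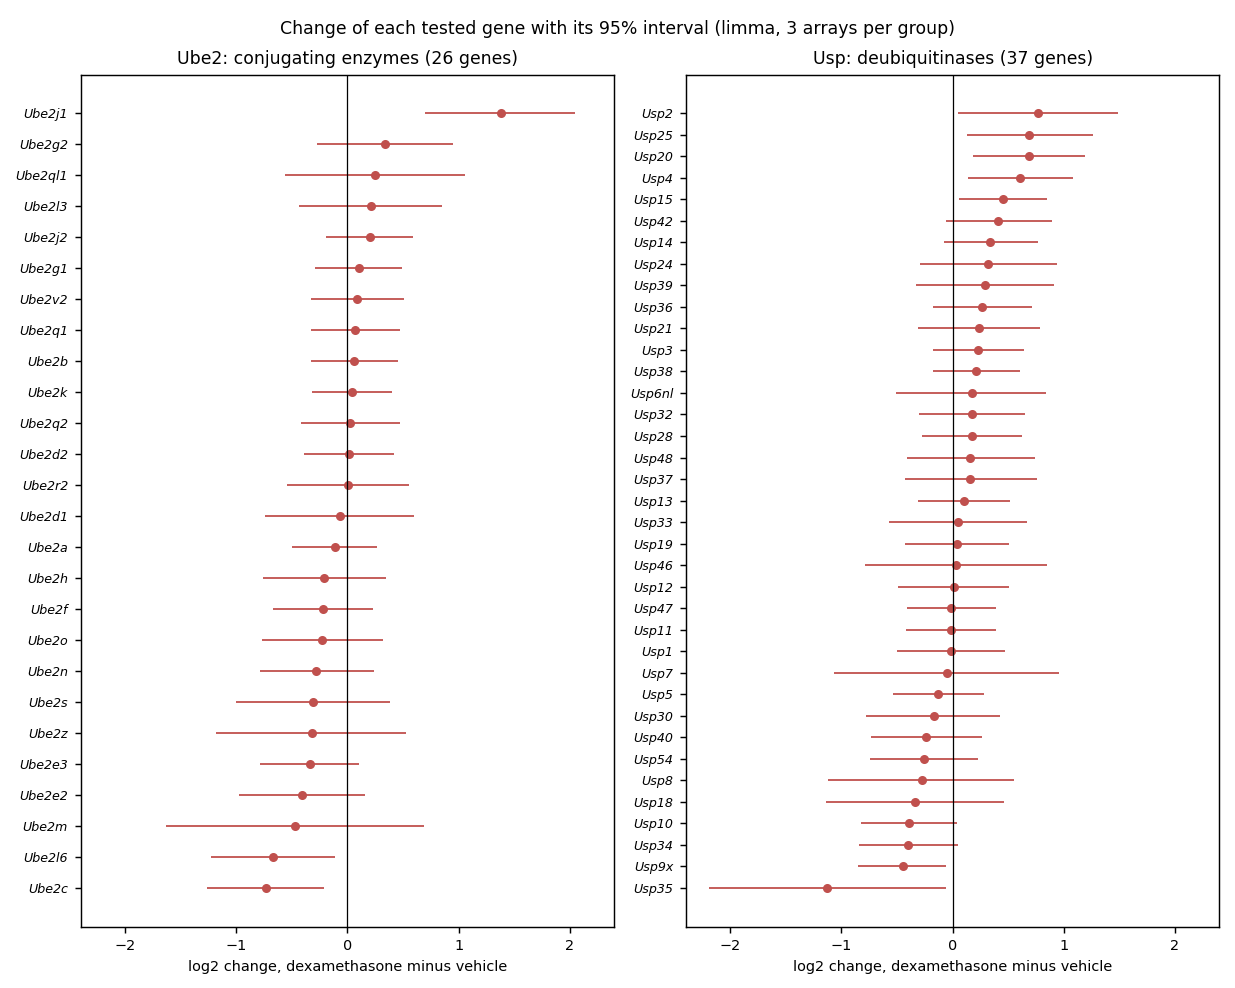
Horizontal axis: log2 change between dexamethasone and vehicle muscle (dexamethasone minus vehicle); each row is a gene, the point its change and the line its 95% interval from limma (3 arrays per group). Ube2j1 stands apart at 1.38 on the Ube2 side, and on the Usp side the changes run between -1.13 for Usp35 and 0.77 for the brighter Usp2 probe set; none passed after adjustment.

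**Figure D2:**
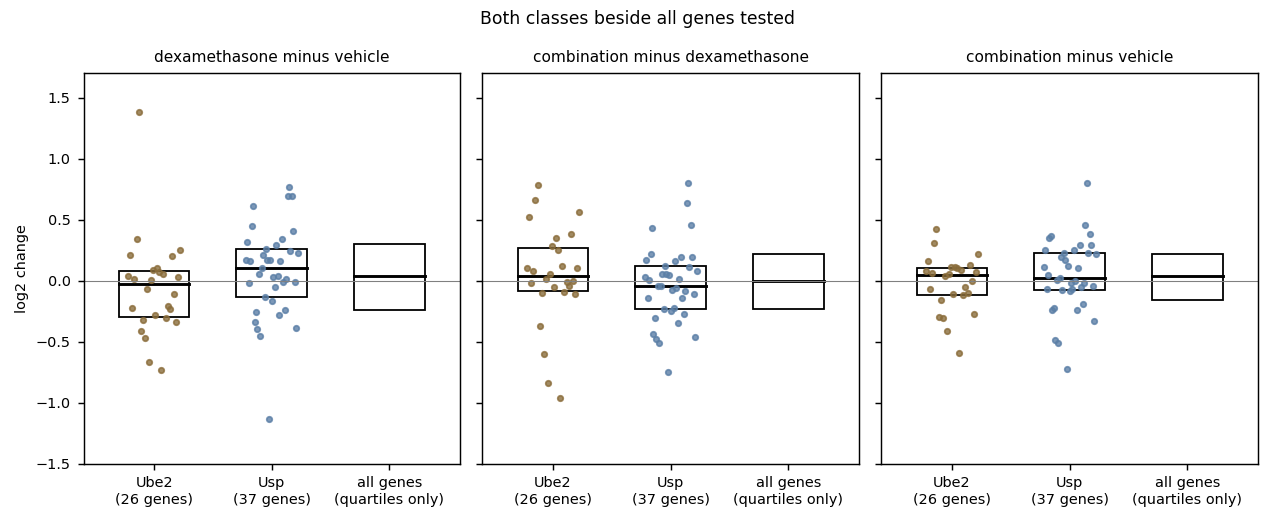
Vertical axis: log2 change of each tested gene (points) in the 3 comparisons, with the median and quartiles as a box; for all 10428 genes only the box is drawn. The medians of Ube2 and Usp genes lie between -0.04 and 0.1 in the 3 panels.

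Usp2 had the largest difference of any tested deubiquitinase probe set, and its readings were high in both groups that received dexamethasone. Usp2 encodes a deubiquitinase whose transcript cycles with the circadian clock in rodent tissues and whose known substrates include cyclin D1 and Mdm2. Probe set 1375549_at read 9.73, 10.3 and 10.85 in combination muscle, 10.0, 10.18 and 10.1 in dexamethasone muscle, and 8.31, 8.9 and 8.74 in vehicle muscle. All 6 arrays of dexamethasone-treated animals, with or without testosterone, lay above all 3 vehicle arrays. The dexamethasone mean was 10.09 ± 0.092 and the vehicle mean 8.65 ± 0.31 (SD, n = 3 each), a 2.72-fold difference, or 1.44 ± 0.29 (SE) on the log2 scale. Its adjusted p from limma was 0.0555, just outside the threshold, from an unadjusted p of 0.000689.

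The value between combination and dexamethasone muscle was small for this probe set, at 0.2 with a 95% interval of -0.45 to 0.85 (limma adjusted p = 0.879). Between combination and vehicle muscle it was 1.64 ± 0.29 (SE), a 3.12-fold difference with a limma adjusted p of 0.467, in a comparison in which no probe set on the array passed. These comparisons share arrays, so their values stand side by side and do not support each other. Within set A dexamethasone muscle exceeded vehicle muscle by 1.47 and within set B by 1.28. Without the 2 arrays of high 3′ to 5′ ratio the change was again 1.44, with a limma adjusted p of 0.0415. Over the 20 alternative settings, the adjusted p ranged between 0.0189 and 0.182 and the change between 1.24 and 1.68.

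The second Usp2 probe set, 1387703_a_at, is the brighter and had a smaller difference. It read 10.46, 11.1 and 11.22 in combination muscle, 10.96, 11.42 and 10.29 in dexamethasone muscle, and 10.06, 10.38 and 9.93 in vehicle muscle. Dexamethasone 3 lay among the vehicle arrays, while every combination array was above them. The change was 0.77 ± 0.32 between dexamethasone and vehicle muscle (limma adjusted p = 0.289) and 0.8 ± 0.32 between combination and vehicle muscle (limma adjusted p = 0.815). The 6 measured clock output genes averaged 8.53 to 9.3 in combination, 8.43 to 8.65 in dexamethasone and 8.64 to 8.82 in vehicle muscle, none of the 6 passed, and any part of time of day in the Usp2 values was not tested.

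**Figure D3:**
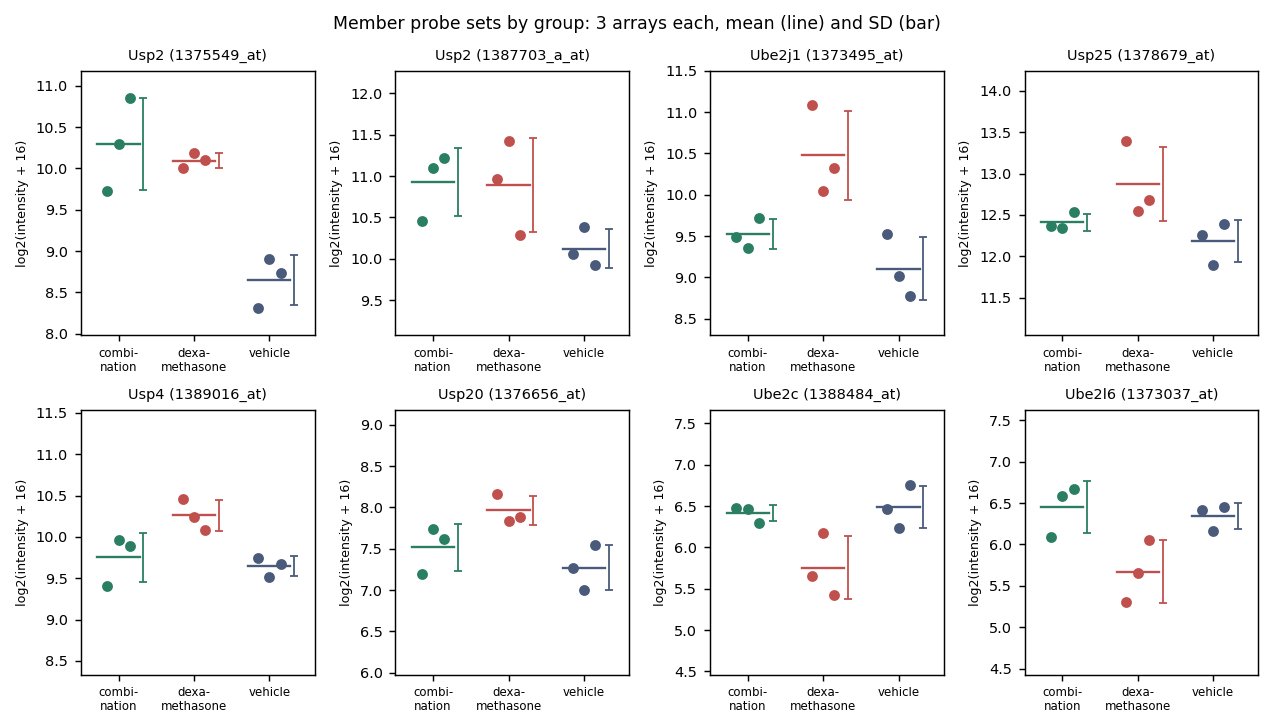
Vertical axis: log2(intensity + 16) after normalization, spanning the same 3.2 units in each panel; points are the 3 arrays of each group, the line their mean and the bar their SD. Both Usp2 probe sets are high in the combination and dexamethasone groups, while Ube2j1, Usp25, Usp4 and Usp20 are highest, and Ube2c and Ube2l6 lowest, in the dexamethasone group.

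Ube2j1 had the largest difference among the conjugating enzymes, and unlike Usp2 its combination arrays lay with the vehicle arrays. Ube2j1 is anchored in the membrane of the endoplasmic reticulum, where it helps to mark misfolded proteins for removal. It read 9.49, 9.36 and 9.72 in combination muscle, 11.08, 10.04 and 10.32 in dexamethasone muscle, and 9.52, 9.02 and 8.77 in vehicle muscle. The 3 dexamethasone arrays were above all 6 others, whereas the combination and vehicle arrays overlapped. The difference between dexamethasone and vehicle muscle was 2.6-fold, 1.38 ± 0.3 (SE) on the log2 scale with a 95% interval of 0.7 to 2.05, and its limma adjusted p was 0.0692. Between combination and dexamethasone muscle the change was -0.96 ± 0.3, or 1.94-fold lower, with a limma adjusted p of 0.283. Between combination and vehicle muscle it was 0.42 (limma adjusted p = 0.88).

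The Ube2j1 difference had the same sign in each array set that held both groups, with 1 or 2 animals of a group in a set. Dexamethasone exceeded vehicle muscle by 1.94 within set A and by 1.02 within set B. Combination muscle was below dexamethasone muscle by a difference of -1.59 in set A, -0.68 in set B and -0.6 in set C. Without dexamethasone 1, the brightest array for this gene, the change from vehicle was 1.08 and that between combination and dexamethasone was -0.66. Ube2j1 has a single probe set among the members, so a second reading was not used here.

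The other E2 enzymes of proteasome-type chains and of the endoplasmic reticulum had small values. Over the 6 tested genes of this group the changes between dexamethasone and vehicle muscle ran between 0.0091 and 1.38, with a median of 0.15, and 1 of 6 (Ube2j1) had an unadjusted limma p under 0.05, where 15.5% of all tested probe sets did. Ube2g2, which also serves endoplasmic reticulum disposal, read 9.26, 9.75 and 9.36 in combination muscle, 10.17, 10.53 and 9.49 in dexamethasone muscle, and 9.74, 9.68 and 9.75 in vehicle muscle. Its dexamethasone arrays spanned the vehicle values, and its changes were 0.34 between dexamethasone and vehicle muscle and -0.6 between combination and dexamethasone muscle (limma adjusted p = 0.602 and 0.461). Ube2j2, the sister of Ube2j1 in the same membrane, gave 0.2 with overlapping arrays. Ube2g1, Ube2k and Ube2r2 had changes of 0.1, 0.042 and 0.0091.

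Ube2c of cell division and Ube2l6 of the ISG15 pathway had their lowest readings in dexamethasone muscle. Ube2c, which starts chains for the anaphase-promoting complex, read 6.48, 6.46 and 6.3 in combination muscle, 5.66, 6.17 and 5.43 in dexamethasone muscle, and 6.47, 6.24 and 6.75 in vehicle muscle. The dexamethasone arrays were below all 6 others. The change was -0.73 ± 0.23 between dexamethasone and vehicle muscle (limma adjusted p = 0.17) and 0.66 ± 0.23 between combination and dexamethasone muscle (limma adjusted p = 0.332). Dexamethasone minus vehicle was -0.95 within set A and -0.078 within set B. Ube2s, which lengthens the chains that Ube2c starts, had values of -0.31 and 0.25 in these comparisons with overlapping arrays.

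Ube2l6, the enzyme that conjugates the interferon-induced modifier ISG15, read 6.09, 6.59 and 6.67 in combination muscle, 5.3, 5.65 and 6.06 in dexamethasone muscle, and 6.42, 6.16 and 6.45 in vehicle muscle. Every dexamethasone array was below every array of the other groups. Its changes were -0.67 between dexamethasone and vehicle muscle (limma adjusted p = 0.234) and 0.78 between combination and dexamethasone muscle (limma adjusted p = 0.293), and the second was 0.79, 0.94 and 0.61 within sets A, B and C. Usp18, the protease that removes ISG15, read 7.0, 5.8 and 6.58 in combination muscle, 6.03, 5.51 and 5.44 in dexamethasone muscle, and 6.46, 5.5 and 6.04 in vehicle muscle. Its groups overlapped, with changes of -0.34 and 0.8 (limma adjusted p = 0.7 and 0.454). Ube2c, Ube2l6 and Usp18 are dim: the lowest mean signal tested was 5.75, and changes of such probe sets are understated by the added 16.

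Fibroblast and endothelial markers differed between dexamethasone and vehicle muscle, while macrophage markers went both ways. The 8 fibroblast markers averaged 10.18 to 11.56 in combination, 8.6 to 10.53 in dexamethasone and 11.35 to 11.84 in vehicle muscle. Their median change between dexamethasone and vehicle muscle was -2.27. Of the 8, 1 passed as lower, where 1.05% of all tested probe sets passed in either direction. At an unadjusted limma p under 0.05, 6 of the 8 were lower, against 7.57% of all tested probe sets, and 0 were higher. The 5 measured endothelial markers averaged 8.51 to 8.74 in combination, 8.59 to 8.68 in dexamethasone and 9.04 to 9.09 in vehicle muscle. By the same unadjusted measure 2 of the 5 were lower in dexamethasone than in vehicle muscle and 0 higher, with a median change of -0.45. The 6 macrophage markers averaged 6.62 to 7.43 in combination, 6.43 to 8.07 in dexamethasone and 7.23 to 7.5 in vehicle muscle. Of the 5 tested, 1 was higher and 0 lower in dexamethasone than in vehicle muscle by that measure. Their changes ran between -0.85 and 1.04. No marker was at 0. In whole muscle, fewer cells of a type and less RNA per cell cannot be told apart, and the part of these cells in the member values was not tested.

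Ube2e2 and Ube2e3, close relatives with long amino-terminal extensions, also had their lowest mean in dexamethasone muscle. Ube2e3 (probe set 1389534_at) read 11.9, 11.77 and 12.23 in combination muscle, 11.59, 11.17 and 11.45 in dexamethasone muscle, and 11.73, 11.7 and 11.81 in vehicle muscle. Again the dexamethasone arrays were the lowest. Its changes were -0.34 between dexamethasone and vehicle muscle and 0.56 between combination and dexamethasone muscle (limma adjusted p = 0.444 and 0.33). The second Ube2e3 probe set gave -0.55 and 0.37, again with no overlap in either comparison. Ube2e2 gave -0.41 and 0.52, and its dexamethasone arrays overlapped the vehicle arrays but not the combination arrays.

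The remaining E2 genes, apart from Ube2m, had smaller values in their brightest probe sets. Ube2m gave -0.47 between dexamethasone and vehicle muscle, with overlapping arrays (limma adjusted p = 0.715). Ube2b, the E2 most often named in rat muscle wasting, read 13.56, 13.32 and 13.23 in combination muscle, 13.29, 13.48 and 13.34 in dexamethasone muscle, and 13.3, 13.25 and 13.4 in vehicle muscle. The 3 groups overlapped, and the change between dexamethasone and vehicle muscle was 0.056 with a 95% interval of -0.33 to 0.45. The second Ube2b probe set gave 0.22, and Ube2a, the other Rad6 homologue, -0.11. The D family, generalist partners of many ligases, gave -0.071 for Ube2d1 and 0.014 for Ube2d2. Ube2n and Ube2v2, which together build the chains used in signalling and DNA repair, gave -0.28 and 0.087. The 3 dexamethasone readings of Ube2n (10.12, 10.15 and 10.41) were below those of vehicle muscle (10.5, 10.52 and 10.48), and the change was 0.02 with the arrays scaled to 1 median, a scaling that put the median of all genes at 0.2 in place of 0.042. Over the 6 other ubiquitin E2 genes the changes ran between -0.32 for Ube2z and 0.21 for Ube2l3. Among them are Ube2l3, a partner of parkin, and Ube2o, which also acts as a ligase. Second probe sets gave the opposite sign for Ube2a (0.091), Ube2d1 (0.17), Ube2n (0.012) and Ube2l3 (-0.19). The other tested Ube2d2 probe sets gave -0.027 and 0.3, and that of Ube2z gave -0.55.

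Dexamethasone arrays lay above all vehicle arrays in 5 of 57 Usp probe sets, or 8.77%, below the 12.5% of all tested probe sets. They were 1 probe set of Usp2 and those of Usp25, Usp20, Usp4 and Usp15. Usp25, a deubiquitinase with a muscle isoform in humans, read 12.37, 12.34 and 12.53 in combination muscle, 13.39, 12.55 and 12.68 in dexamethasone muscle, and 12.26, 11.9 and 12.39 in vehicle muscle. The difference between dexamethasone and vehicle muscle was 0.69 (limma adjusted p = 0.226), of which dexamethasone 1 gave the most: within set A it was 1.07 and within set B 0.65. Usp20, which acts on the beta-2 adrenergic receptor in mammalian cells, read 7.2, 7.74 and 7.62 in combination muscle, 8.16, 7.84 and 7.89 in dexamethasone muscle, and 7.27, 7.0 and 7.55 in vehicle muscle. It had the same change of 0.69 (limma adjusted p = 0.179), while its other probe sets gave 0.51 and 0.14 with overlapping arrays.

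Usp4 and Usp15 are paralogues that act on the TGF-beta pathway. Usp4 (1389016_at) read 9.41, 9.96 and 9.89 in combination muscle, 10.46, 10.24 and 10.08 in dexamethasone muscle, and 9.75, 9.52 and 9.67 in vehicle muscle. Dexamethasone arrays were the highest of the 9, with a change of 0.61 from vehicle (limma adjusted p = 0.201) and of -0.51 between combination and dexamethasone muscle (limma adjusted p = 0.418). The second Usp4 probe set, 1394536_at, gave -0.0047 between dexamethasone and vehicle muscle, with overlapping arrays. Usp15 read 9.74, 9.78 and 9.91 in combination muscle, 10.18, 10.12 and 10.17 in dexamethasone muscle, and 9.63, 9.94 and 9.55 in vehicle muscle. Its dexamethasone arrays lay close together (SD 0.032, n = 3) and were again the highest, with changes of 0.45 and -0.35 (limma adjusted p = 0.258 and 0.529). The third paralogue, Usp11, gave -0.015 and -0.22.

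Dexamethasone arrays lay below all vehicle arrays in 4 of 57 Usp probe sets, or 7.02%, again below the 10.4% of all tested probe sets. They were those of Usp9x, Usp35, Usp10 and Usp34. Usp9x, a large X-linked protease of many substrates, read 10.77, 10.85 and 10.87 in combination muscle, 10.18, 10.33 and 10.59 in dexamethasone muscle, and 10.86, 10.87 and 10.73 in vehicle muscle. The dexamethasone arrays were below the other 6, with changes of -0.45 and 0.46 (limma adjusted p = 0.257 and 0.386). The other 3 Usp9x probe sets gave -0.23, -0.22 and 0.19 between dexamethasone and vehicle muscle, each with overlapping arrays. Usp35 had the most negative change, -1.13, but dexamethasone 2 alone read 4.32 where dexamethasone 1 and 3 read 6.31 and 6.19, against 6.99, 6.75 and 6.45 in vehicle muscle. Usp10, which stabilises p53, and Usp34, which acts in Wnt signalling, gave -0.39 and -0.4 (limma adjusted p = 0.368 and 0.382), with the dexamethasone arrays below the vehicle arrays in both.

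Deubiquitinases with a known place at the proteasome, the endoplasmic reticulum or the mitochondrion had overlapping groups. Usp14, which trims ubiquitin from substrates docked at the proteasome, read 11.27, 11.35 and 11.59 in combination muscle, 11.74, 11.38 and 11.78 in dexamethasone muscle, and 11.23, 11.25 and 11.39 in vehicle muscle, a change of 0.34 between dexamethasone and vehicle muscle (limma adjusted p = 0.429). Usp19, a deubiquitinase with an isoform anchored in the endoplasmic reticulum, read 10.36, 9.91 and 10.07 in combination muscle, 9.95, 9.66 and 10.17 in dexamethasone muscle, and 9.92, 9.72 and 10.03 in vehicle muscle. Its change between dexamethasone and vehicle muscle was 0.037 with a 95% interval of -0.43 to 0.51, and that of its second probe set 0.23. Usp5, which takes apart free ubiquitin chains, gave -0.13, and Usp30 of the mitochondrial outer membrane -0.17. Usp39 and Usp6nl, the members that are not active deubiquitinases, gave 0.29 and 0.17. The 20 tested Usp genes not named so far ran between -0.28 for Usp8 and 0.41 for Usp42, with a median of 0.13.

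**Figure D4:**
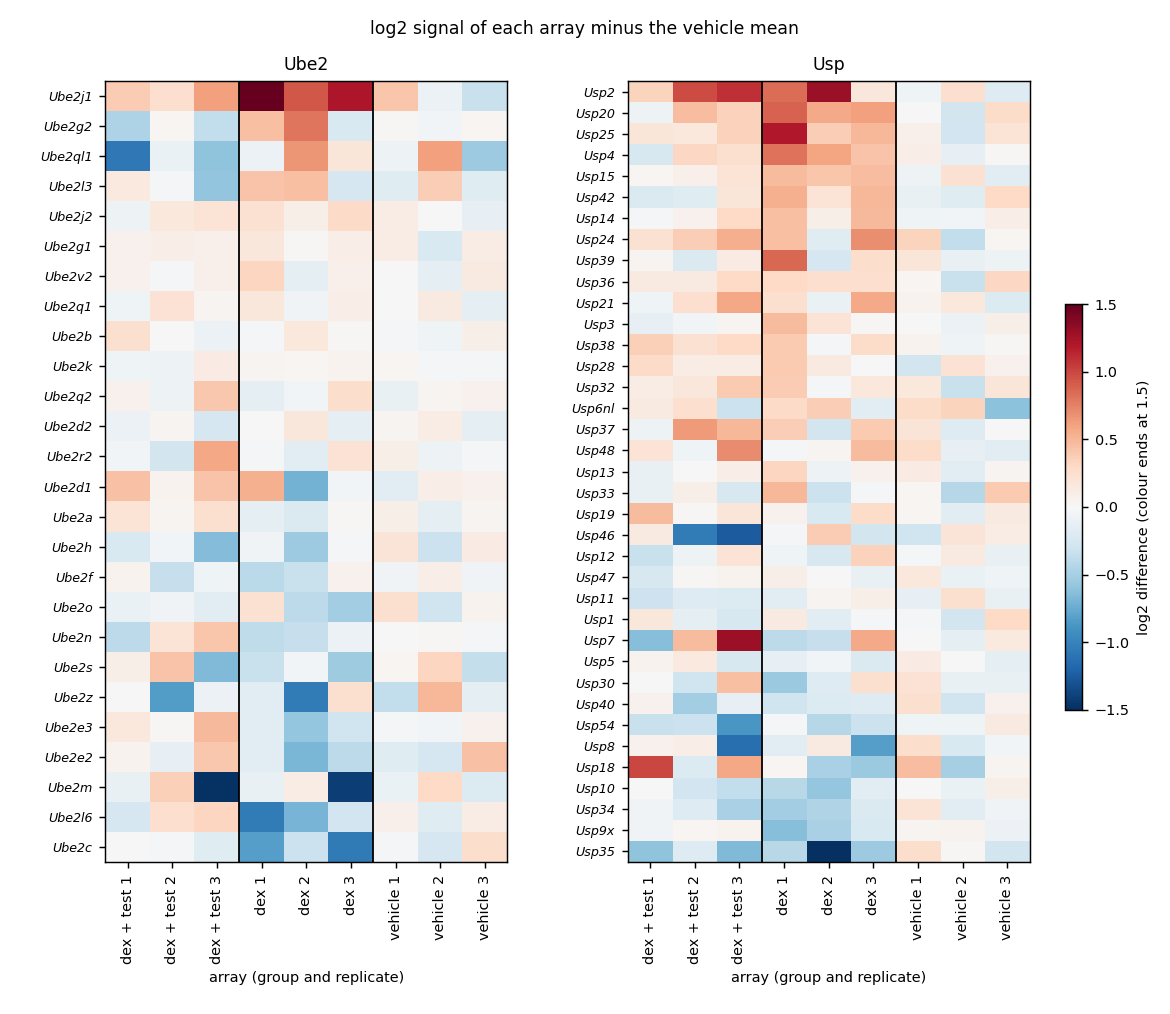
Colour: log2 signal of each array minus the mean of the 3 vehicle arrays, for the representative probe set of each of 26 Ube2 and 37 Usp genes (rows, ordered by the change between dexamethasone and vehicle) in the 9 arrays (columns); colours end at 1.5. The deepest red is Ube2j1 in dexamethasone 1, and the deepest blues are Ube2m in combination 3 and dexamethasone 3 and Usp35 in dexamethasone 2.

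Between combination and dexamethasone muscle, the members again did not pass. None of the 101 had a limma adjusted p below 0.05, where 0.113% of all tested probe sets did, and 10 had an unadjusted limma p under 0.05, or 9.9% against 11.0%. Of these, 6 were higher and 4 lower in combination muscle, against 5.59% and 5.36% of all tested probe sets. The arrays of the groups did not overlap in 17 members, or 16.8%, against 14.6% of all tested probe sets. Of the 44 tested Ube2 probe sets, 7 (15.9%) were higher in combination muscle and 2 (4.55%) lower without overlap. Of the 57 tested Usp probe sets, 1 (1.75%) was higher and 7 (12.3%) were lower. Over all tested probe sets 7.23% were higher and 7.35% lower without overlap. The class medians were close to 0 nonetheless, at 0.037 for Ube2, -0.04 for Usp and -0.00096 for all genes. By array, relative to the vehicle mean, the Ube2 median was -0.0018, 0.015 and 0.055 in combination muscle and -0.039, -0.1 and -0.0026 in dexamethasone muscle. These did not overlap, but -0.0018 and -0.0026 nearly touched, and the SD between Ube2 array medians within groups was 0.0343. The all-gene medians of the same arrays were -0.0011, 0.021 and 0.14 in combination muscle and 0.043, -0.021 and 0.13 in dexamethasone muscle. The Usp medians were 0.0023, 0.024 and 0.18 in combination muscle and 0.24, -0.044 and 0.16 in dexamethasone muscle, which overlapped. Without dexamethasone 1 the Usp change was 0.02. No test was made of a class median, and the difference between the classes was not tested.

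The 7 Ube2 probe sets with higher combination arrays were those of Ube2c, Ube2l6, Ube2e2, Ube2a and Ube2f and both of Ube2e3. Ube2f, which conjugates NEDD8 to cullins, read 8.04, 7.55 and 7.86 in combination muscle, 6.91, 7.38 and 6.94 in dexamethasone muscle, and 7.56, 7.29 and 6.76 in vehicle muscle in its dimmer probe set. That probe set gave 0.74 between combination and dexamethasone muscle (limma adjusted p = 0.328) and 0.62 between combination and vehicle muscle, whereas the brighter Ube2f probe set gave 0.1 and -0.12 with overlapping arrays. The 2 lower Ube2 genes were Ube2j1 and Ube2ql1. Ube2ql1 read 6.57, 7.54 and 7.04 in combination muscle, 7.55, 8.31 and 7.82 in dexamethasone muscle, and 7.57, 8.26 and 7.1 in vehicle muscle. Its combination and dexamethasone readings nearly touched, and the change was -0.84 ± 0.36 (limma adjusted p = 0.431), with -0.23 in its second probe set.

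The 7 lower Usp probe sets were those of Usp4, Usp15, Usp20, Usp25, Usp42, Usp11 and Usp13, and the only higher one was that of Usp9x. For Usp25 the difference came mainly from set A, where it was -1.02, against -0.21 in set B and -0.15 in set C. Usp4 likewise gave -1.05, -0.29 and -0.18 in sets A, B and C, and Usp20 gave -0.96, -0.1 and -0.27. Set A holds combination 1, in which the 7 slow fibre markers averaged 8.54, against 13.72 and 12.54 in the other combination arrays, 13.85 to 14.18 in dexamethasone and 13.66 to 14.0 in vehicle muscle. Set A also holds dexamethasone 1, the highest of its group for Usp25 (13.39), Usp4 (10.46) and Usp20 (8.16). Combination 1 read 12.37 for Usp25, between the 12.34 and 12.53 of the other combination arrays. It was the lowest of its group for Usp4 (9.41) and Usp20 (7.2). Whether the fibre content of the combination 1 animal bears on these values was not tested. Usp46, whose known substrates include glutamate receptors, read 7.31, 6.12 and 5.92 in combination muscle, 7.15, 7.56 and 6.9 in dexamethasone muscle, and 6.87, 7.37 and 7.28 in vehicle muscle. Combination 2 and 3 were the lowest of the 9, combination 1 was not, and the second Usp46 probe set gave a change of 0.0014.

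Between combination and vehicle muscle, where 0.0% of all tested probe sets passed, 0 of 101 members passed. At an unadjusted limma p under 0.05 stood 5, or 4.95% against 6.12%, with 4 higher against 3.16% and 1 lower against 2.95% of all tested probe sets. The arrays did not overlap in 6 members, or 5.94%, against 13.3% of all tested probe sets, and 0 of these was a Ube2 probe set. Higher were both probe sets of Usp2 and those of Usp38 and Usp48, 4 in all against 7.53% of all tested probe sets. Lower were Usp11 and Usp54, 2 in all against 5.79%. Usp54 read 6.72, 6.74 and 6.18 in combination muscle and 6.99, 6.99 and 7.19 in vehicle muscle, a change of -0.51 (limma adjusted p = 0.815). Usp38 read 9.96, 9.84 and 9.9 in combination muscle and 9.66, 9.54 and 9.62 in vehicle muscle, a change of 0.29 (limma adjusted p = 0.849). The class medians were 0.046 for Ube2 and 0.024 for Usp, against 0.038 for all genes.

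Different probe sets of a gene did not always give the same sign. Of the 31 genes with several tested probe sets, 18 had a single sign between dexamethasone and vehicle muscle, 19 between combination and dexamethasone muscle and 15 between combination and vehicle muscle. Probe sets of a gene also differed in the 2 arrays of high 3′ to 5′ ratio, and the part of these arrays in the signs was not tested. In 7 of 101 tested members, or 6.93%, both combination 3 and dexamethasone 3 lay at least 0.5 below each of the other 7 arrays, and in 0 members they lay that far above. Over all tested probe sets these shares were 3.76% and 0.215%. The 7 were probe sets of Ube2g2, Usp34, Ube2m, Usp47, Usp4, Usp8 and Ube2z.

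The dimmer Ube2g2 probe set, 1380157_at, was the extreme case. It read 4.37 in combination 3 and 4.52 in dexamethasone 3, against 7.3 to 9.85 in the other 7 arrays. The brighter Ube2g2 probe set showed no such split. Usp34 (1391980_at) read 5.52 in combination 3 and 5.48 in dexamethasone 3, against 7.13 to 8.35, and Usp47 (1373157_at) read 9.07 and 9.46, against 10.57 to 10.79. In 6 of the 7 genes another tested probe set existed, and none of these was split by the same measure. In that of Usp8, 1373358_at, combination 3 (4.2) and dexamethasone 3 (4.4) were still the lowest of the 9 arrays, with vehicle 1 next at 4.65. Ube2m, the NEDD8-conjugating E2 that serves most cullins, has no second tested probe set. It read 10.47, 10.94 and 9.11 in combination muscle, 10.48, 10.7 and 9.17 in dexamethasone muscle, and 10.49, 10.89 and 10.38 in vehicle muscle. Its change of -0.41 between combination and vehicle muscle became 0.12 without the 2 arrays.

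**Figure D5:**
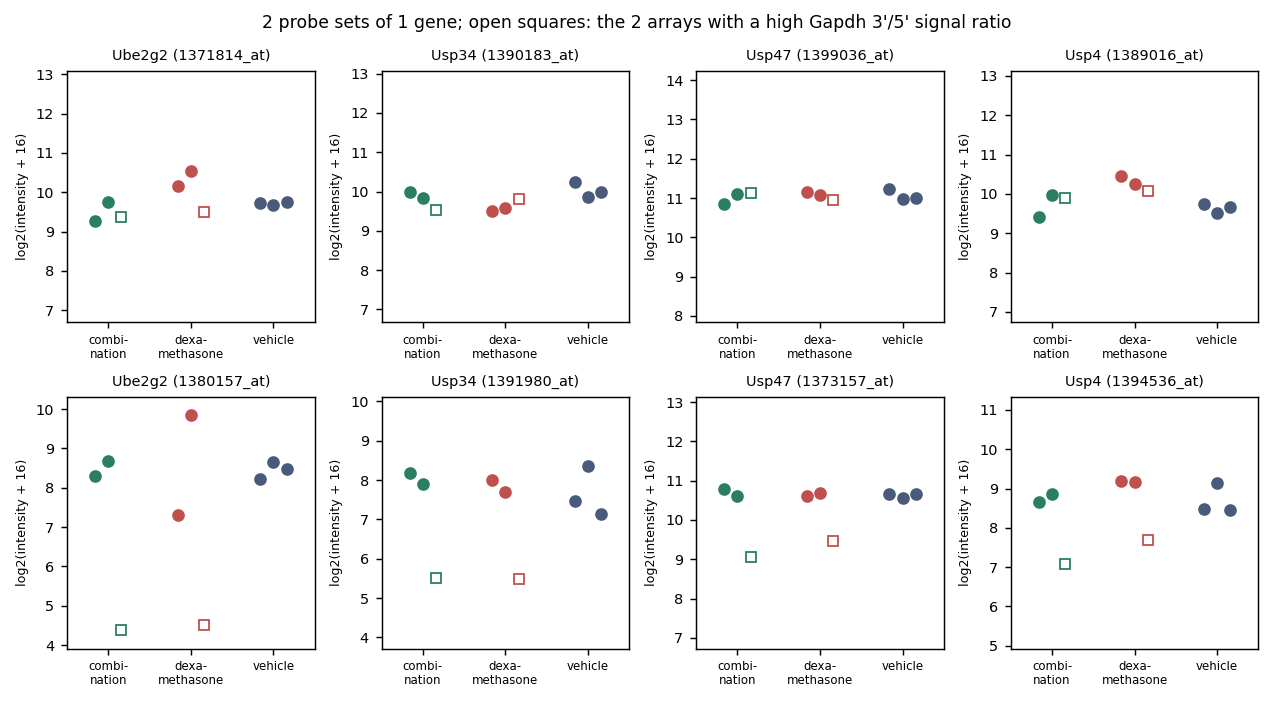
Vertical axis: log2(intensity + 16), spanning 6.4 units in each panel, for a probe set without (top) and with (bottom) the split in Ube2g2, Usp34, Usp47 and Usp4; open squares are combination 3 and dexamethasone 3. In the bottom row the squares lie below all other points, at 4.37 and 4.52 for Ube2g2, and in the top row they lie among or near them.

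The 34 members under the filter had means of at most 5.67. For 9 genes no probe set was tested: Ube2d2b, Ube2t, Ube2u, Usp27x, Usp29, Usp31, Usp43, Usp44 and Usp49. Their levels are too dim on these arrays for a difference to be read, which does not show that the transcripts were absent.

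Other genes of the pathway did not pass either, in lists so short that a count of 0 is near the share of all tested probe sets. That share was 1.05% between dexamethasone and vehicle, 0.113% between combination and dexamethasone and 0.0% between combination and vehicle muscle. Of the 8 tested genes of ubiquitin and ubiquitin-like E1 enzymes, 0 passed in any comparison, with a median change of -0.059 between dexamethasone and vehicle muscle. Of the 28 tested deubiquitinases outside the Usp symbols, 0 passed, with a median of 0.076, and of 6 tested E2-like proteins, 0 passed, with a median of 0.1. Mindy1, a protease that prefers long chains, had the lowest unadjusted p among these deubiquitinases, with 8.64, 8.69 and 8.68 in combination muscle, 9.45, 9.1 and 8.63 in dexamethasone muscle, and 8.45, 8.47 and 8.22 in vehicle muscle (change from vehicle 0.68, limma adjusted p = 0.189). Of the 14 tested ligases of muscle atrophy, 0 passed, with a median of 0.26.

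Trim63 read 11.43, 11.68 and 11.1 in combination muscle, 13.3, 12.46 and 11.77 in dexamethasone muscle, and 11.39, 11.49 and 11.32 in vehicle muscle. Every dexamethasone array was above the other 6, and the change from vehicle was 1.11 ± 0.35 (limma adjusted p = 0.168). Fbxo32 read 5.81, 6.85 and 6.13 in combination muscle, 8.16, 8.14 and 5.61 in dexamethasone muscle, and 6.26, 5.94 and 6.01 in vehicle muscle. Dexamethasone 3, which is an array of high Gapdh 3′ to 5′ ratio (4.94), gave the lowest of the 9 Fbxo32 readings. The change of 1.24 had a limma adjusted p of 0.384, and the part of that array's ratio in it was not tested.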

How the data were processed

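Total RNA of 9 rat gastrocnemius muscles was measured on Affymetrix rat expression arrays. Per the labels' protocols, RNA came from a phenol-chloroform extract of homogenized muscle, was purified on columns and was labelled with biotin. The authors deposited a linear intensity for each of 31099 probe sets. The signal algorithm is not given in the sources used here, and 4 arrays were not brought to the scale of the other 5.

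The 57 control probe sets were left out. Array medians of the log2 values spanned 2.35, above the limit of 0.1, so log2(intensity + 16) was quantile normalized, which understates changes of dim probe sets. Probe sets at or above the 40th percentile of mean signal, 18625 of 31042, were tested with limma 3.58.1 in R 4.3.3: 1 mean per group over all 9 arrays, empirical Bayes variances, and Benjamini-Hochberg adjustment within each comparison at 0.05. The script was tested on simulated data. Animals are the replicates, and their number limits the precision.

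Platform symbols were looked up by gene ID in the rat annotation GRCr8, where all 135 members were found and 0 changed. The brightest probe set by mean stood for its gene. Named genes are, in each comparison and class, the 6 of lowest p in each direction, plus members named by role. The members, the lists of genes and these rules were chosen with earlier results of these data known. Replicate numbers were not treated as pairs, since arrays of the same number did not all deviate together. Alternatives were other scalings, pseudocounts, filters and variance models, blocks for replicate number and array set, and leaving out arrays.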

Additional observations from a re-analysis of the deposited data

How the results depend on the processing

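Between dexamethasone and vehicle, the count of members past the threshold was 0 and became 2 (Usp2 and Ube2j1) with a pseudocount of 64, with a filter at the 60th percentile and with robust variances that follow an intensity trend, and 1 (Usp2) without the 2 arrays of high 3′ to 5′ ratio and with only the 2 groups compared. The calls over all probe sets were 196 in the main fit. They were 414 with that pseudocount, 469 with that filter, 510 with those variances and 444 without the high-ratio arrays. The member gains in those settings thus came with a gain over all probe sets, and whether they exceeded it was not tested. In each of those settings the share of members past the threshold was below the share of all tested probe sets. With that pseudocount and with those variances, for example, it was 2 of 101 members, against 414 and 510 of 18625 probe sets. With only the 2 groups compared, the calls over all probe sets fell, and there the share of members, 1 of 101, was above that of all tested probe sets. Leaving out 1 array at a time gave 0 to 1 members, the 1 being Usp2 without combination replicate 1 or without combination replicate 3, while the calls over all probe sets ran between 1 and 333. In the other comparisons 0 members passed under every alternative. With the replicate number as a block, 0 members passed in each comparison, and the calls over all probe sets were 13 between dexamethasone and vehicle and 0 between combination and dexamethasone. Scaling to 1 median moved the medians to 0.23 (Ube2) and 0.28 (Usp) between dexamethasone and vehicle, to 0.076 (Ube2) between combination and dexamethasone, and to 0.3 for both classes between combination and vehicle. The all-gene medians became 0.2, -0.0019 and 0.21. The Ube2 median between dexamethasone and vehicle was 0.0091 with no filter, 0.012 at the 60th percentile, -0.083 without the high-ratio arrays and -0.083 to 0.021 with 1 array left out; between combination and dexamethasone it was 0.00088 to 0.05 with 1 array left out. Between combination and vehicle it was -0.0048 without the high-ratio arrays and -0.0048 to 0.05 with 1 array left out. With 1 array left out the Usp median ran between 0.058 and 0.19 for dexamethasone against vehicle, between -0.083 and 0.02 for combination against dexamethasone (0.02 without dexamethasone replicate 1), and between 0.0033 and 0.075 for combination against vehicle.

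Of 1489 values for single genes under the alternatives, 1462 kept their direction and side of the threshold, 10 passed it (Usp2 and Ube2j1) and 17 changed sign, none of them past the threshold. Between dexamethasone and vehicle, scaling to 1 median gave 0.02 for Ube2n and 0.064 for Ube2f, Ube2g1 was -0.013 without vehicle replicate 2, and Ube2ql1 ran between -0.024 and 0.56 with 1 array left out. Between combination and dexamethasone, Usp2 (1375549_at) gave -0.074 without the high-ratio arrays and -0.078 to 0.48 with 1 array left out, where Usp35 ran between -0.0043 and 0.99 and Usp7 between -0.028 and 0.93. Between combination and vehicle, scaling to 1 median gave 0.16 for Ube2f, 0.024 for Usp34 and 0.087 for Usp10; an array set block gave -0.0011 for Ube2q2 and 0.027 for Ube2m; and leaving out the high-ratio arrays, or combination replicate 3 alone, gave -0.0071 for Ube2q2 and 0.12 for Ube2m, which ran between -0.8 and 0.12 with 1 array left out. Apart from the settings that left out arrays, the causes were not tested.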

Other observations

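The 8 probe sets that carry a Ube2 symbol with a second symbol cover Ube2d2 with Ube2d3, Ube2e1 with Ube2e2, and Ube2v1 with a like gene, Ube2v1l1. Of these, 6 were tested and 0 passed in any comparison by limma. The brightest pair of Ube2d2 and Ube2d3 (1367456_at) read 12.84, 12.73 and 12.54 in combination muscle, 13.09, 12.95 and 12.97 in dexamethasone muscle, and 12.6, 12.7 and 12.81 in vehicle muscle, so that the dexamethasone arrays were the highest of the 9 with a change of 0.3 from vehicle (limma adjusted p = 0.448). A Ube2v1 probe set (1395426_at) read 11.5, 11.06 and 8.03 in combination muscle, 10.13, 11.28 and 8.65 in dexamethasone muscle, and 10.74, 11.5 and 10.76 in vehicle muscle. Its lowest readings were the arrays with the high Gapdh 3′ to 5′ ratio, whereas another Ube2v1 probe set (1398897_at) read 11.13 and 11.25 in those arrays and 10.94 to 11.53 in the other 7.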
